A study of Rattus norvegicus with 30 samples.

Results

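A rule for near on-off levels between the brains of GAERS and NEC rat pups picked 27 of the 32586 genes in the count table. Several of them differed by degree only. Members were chosen by their mean levels in the 16 non-exposed libraries alone. A gene entered when the higher of its 2 strain means was at least 1 CPM (counts scaled so that each library sums to 1000000) and when that mean plus 0.1 was at least 4 times the lower mean plus 0.1. In 13 genes the mean was higher in GAERS and in 14 it was higher in NEC. They are called G1 to G13 and N1 to N14, each numbered from the largest ratio in non-exposed pups down. The rule took 0.192% of the 14044 genes with a higher non-exposed strain mean of at least 1 CPM.

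Bulk RNA was sequenced from brain tissue of 30 pups. GAERS (Genetic Absence Epilepsy Rats from Strasbourg) is an inbred strain in which absence seizures occur on their own. NEC, the Non-Epileptic Control strain, is inbred too and does not have them. Pups of each strain were exposed to the antiseizure drug valproate (VPA) or not exposed, which gave 8 control and 7 VPA libraries of each strain. Dose, route, age, sex, litter and region of the brain are not in the labels, nor is which pups share a dam. The p-values therefore reflect only how far these pups differ from each other. Exposed libraries took no part in choosing the members, and they were used to ask whether the strain difference held and whether exposure altered it.

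Absence seizures are brief lapses of awareness that arise in loops between thalamus and cortex and show in the electroencephalogram as spike-and-wave discharges. GAERS and NEC were both bred from Wistar rats. Within an inbred strain nearly all animals carry the same alleles, so a strain difference in the level of a gene tends to be shared by its pups. Valproate also inhibits histone deacetylases, enzymes that remove acetyl groups from histones and so act on the reading of many genes.

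Total counts ran from 26963266 to 56568656 per library, so that 1 CPM stood for 26.96 to 56.57 counts. In each group the library with the lowest median rank correlation (Spearman) to the other pups of its group, over 13934 genes, is said to stand apart. Every group has such a library by definition. That correlation was 0.9727 for NEC control 3, 0.9911 for NEC VPA 7, 0.9825 for GAERS control 1 and 0.9886 for GAERS VPA 4, against 0.9917 to 0.9967 for the other libraries. NEC VPA 7 was little below NEC VPA 1, at 0.9923. The number of members by the rule and the numbers called are given with and without them. The count table carries rat Ensembl identifiers and no gene symbols. None of the 32586 identifiers could be matched to a name in the table used here, so members are described by level and pattern, no function is given for any of them, and no sequence is shown. The tissue label could not be checked against brain markers for the same reason. In brain tissue, fewer cells of a type and less RNA per cell cannot be told apart.

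Most members took few counts even in the strain where they were high. In non-exposed pups, the higher strain mean was under 10 CPM in 24 of 27 members, with a median of 3.10 CPM. The lower strain mean had a median of 0.196 CPM and was under 0.5 CPM in 20 of 27. The median ratio was 9.87 for the GAERS-high genes and 9.24 for the NEC-high genes. These values chose the members and are given as a description. Over all genes, 8.66% of the 15885 tested were called between the strains in non-exposed pups, 4.04% higher and 4.62% lower in GAERS (edgeR, all 30 libraries), and nothing is read from the members' share of them. Levels are compared between strains and pups for the same gene, not between genes, since CPM is not per length.

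**Figure D1:**
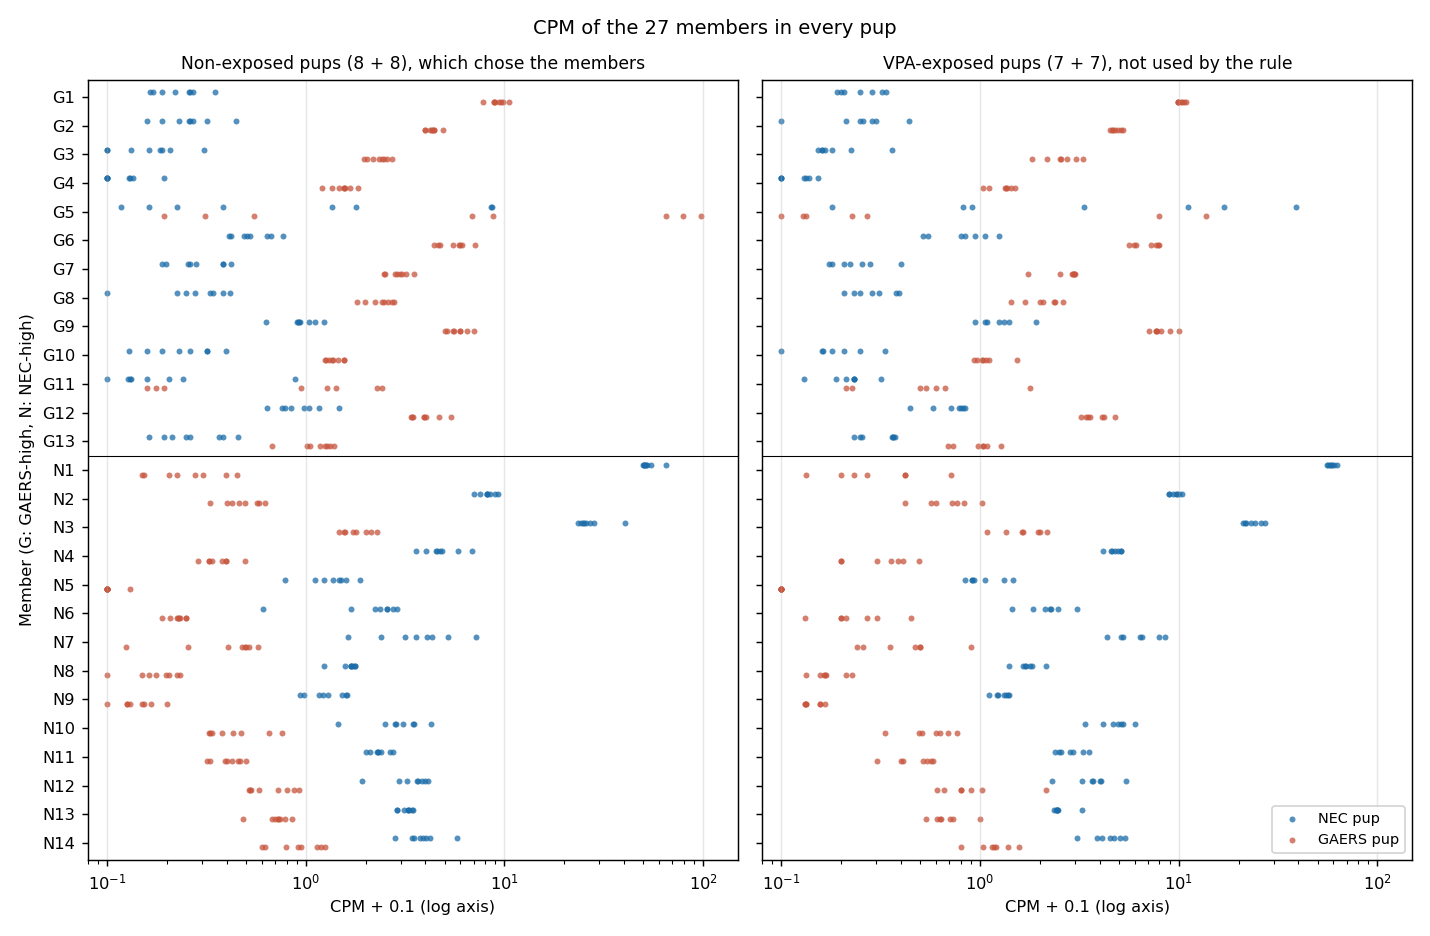
CPM + 0.1 of each member (rows, G1 to G13 above the line and N1 to N14 below it) in every pup, on a log axis, with NEC in blue and GAERS in red. The left panel holds the 16 non-exposed pups and the right panel the 14 exposed pups. In the right panel the strains do not overlap in 25 of 27 members, G5 and G11 being the exceptions.

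The strain difference was seen again in exposed pups for 25 of the 27 members. In a fit on the 14 exposed libraries alone, 11 of 13 GAERS-high genes were higher in GAERS and 14 of 14 NEC-high genes were higher in NEC (edgeR quasi-likelihood test, Benjamini-Hochberg adjusted p under 0.05 over 15415 genes tested). Over all genes tested, 6.13% were called higher and 5.30% lower in GAERS in that fit. The members that were not called were G5, which went the other way, and G11, which had too few counts in exposed pups to be tested. Without the filter on low counts G11 was called too, which gave 12 of 13, whereas in the fit on all 30 libraries G11 was tested and did not pass (edgeR adjusted p = 0.0984).

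Counting pups gave the same 25 members without a model or a filter. In 11 of 13 GAERS-high genes every exposed GAERS pup lay above every exposed NEC pup, against 1.95% of the 14090 genes with a higher exposed strain mean of at least 1 CPM. In 14 of 14 NEC-high genes every exposed NEC pup lay above every exposed GAERS pup, against 1.76% of those genes. The ratio of the rule, taken in exposed pups, was at least 2 in the original direction in 26 of 27 members and at least 4 in 21 of 27, where 0.979% and 0.220% of all such genes had those ratios in either direction. G10, G11, G13 and N5 had higher exposed means under 1 CPM. They are counted among the members but lie outside the 14090 genes.

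Among the GAERS-high genes the widest gap in exposed pups was that of G1 (ENSRNOG00000008548). Its lowest, median and highest values were 9.79, 10.1 and 10.7 CPM in exposed GAERS pups and 0.0906, 0.148 and 0.238 CPM in exposed NEC pups. The groups lay far apart, and the GAERS pups were nearly even. G1 was 63.0-fold higher in exposed GAERS (log2 fold change 5.98 ± 0.15 SE, edgeR adjusted p = 3.39e-14). In non-exposed pups its lowest, median and highest values had been 7.66, 9.09 and 10.5 CPM in GAERS and 0.0651, 0.138 and 0.251 CPM in NEC.

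G2 (ENSRNOG00000017412) had a lowest, median and highest value of 4.40, 4.70 and 5.16 CPM in exposed GAERS pups, and of 0, 0.158 and 0.340 CPM in exposed NEC pups. Every GAERS pup was high and every NEC pup near 0. The gene was 27.9-fold higher in exposed GAERS (log2 fold change 4.80 ± 0.25 SE, edgeR adjusted p = 1.02e-09). G4 was close to absent in NEC, with 5 counts over the 7 exposed NEC libraries and 272 over the 7 exposed GAERS libraries, at 1.21 ± 0.169 CPM in the latter (SD, n = 7).

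The other GAERS-high genes ranged from clear presence in a single strain to a difference of degree. In exposed GAERS, G6 and G9 took the most counts of them. G6 was at 6.83 ± 1.003 CPM in exposed GAERS and 0.751 ± 0.264 CPM in exposed NEC, and G9 at 8.11 ± 0.990 and 1.18 ± 0.324 CPM (SD, n = 7 each). For NEC this is a low level and not an absence. G13, which had the smallest ratio of the rule, was still 3.96-fold higher in exposed GAERS (log2 fold change 1.98 ± 0.22 SE, edgeR adjusted p = 1.41e-05). Across the 11 called GAERS-high genes the fold ran from 3.96 to 63.0.

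Of the NEC-high genes N1 (ENSRNOG00000032708) took the most counts in NEC and had the largest ratio of the rule. Its lowest, median and highest values were 55.6, 58.5 and 62.5 CPM in exposed NEC pups and 0.0336, 0.169 and 0.615 CPM in exposed GAERS pups. The 7 exposed GAERS libraries held 56 counts of it in all, and the 7 exposed NEC libraries 13548. N1 was 235-fold lower in exposed GAERS (log2 fold change -7.88 ± 0.20 SE, edgeR adjusted p = 9.87e-14).

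N2 (ENSRNOG00000029386) had a lowest, median and highest value of 8.78, 9.63 and 10.3 CPM in exposed NEC pups and of 0.319, 0.619 and 0.922 CPM in exposed GAERS pups. The groups did not overlap, and the gene was 15.8-fold lower in exposed GAERS (log2 fold change -3.98 ± 0.15 SE, edgeR adjusted p = 1.12e-11). N3 was at 23.5 ± 2.33 CPM in exposed NEC and 1.59 ± 0.381 CPM in exposed GAERS (SD, n = 7 each), a 14.97-fold difference (edgeR adjusted p = 1.47e-12).

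N5 was the single member with no read at all in a group. All 7 exposed GAERS libraries were at 0, while the exposed NEC pups were at 0.963 ± 0.236 CPM (SD, n = 7). Against a floor of 3 counts over the exposed GAERS group, 0.0134 CPM, it was at least 72.5-fold higher in NEC. In non-exposed pups 1 count was found over the 8 GAERS libraries and 370 over the 8 NEC libraries, a ratio of 370 with an exact 95% interval of 66.0 to 14644 that covers counting error only. Those counts chose N5, so the ratio and its interval are a description. A read was present in every exposed library of the lower strain in 23 of 27 members.

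Among exposed NEC pups, N1 and N2 had the narrowest spread of the NEC-high genes, with an SD of 4.08% and 5.98% of the mean. The widest were N12, N5, N7 and N6, at 25.6%, 24.5%, 24.4% and 23.8%. N7 ran from 4.26 to 8.39 CPM in exposed NEC pups with a median of 6.31 CPM, and from 0.140 to 0.797 CPM in exposed GAERS pups with a median of 0.369 CPM. N12 came closest to an overlap. GAERS VPA 4 was at 2.04 CPM of N12, just under the lowest exposed NEC pup at 2.19 CPM, and the next GAERS pup was at 0.929 CPM. N12 was 4.19-fold lower in exposed GAERS (log2 fold change -2.07 ± 0.26 SE, edgeR adjusted p = 6.78e-05). N12, N13 and N14 were differences of degree, with folds of 4.19, 4.15 and 3.99.

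Exposed pups of the higher strain were alike in most members. For the 25 members other than G5 and G11, the SD was 3.85% to 25.6% of the mean among the 7 exposed pups of the higher strain, with a median of 15.1%. For G5 and G11 in exposed GAERS it was 175% and 97.0%. Among non-exposed pups of the higher strain, the SD of the same 25 members was 6.69% to 44.7% of the mean, with a median of 15.1%. Setting a midpoint for each member (the geometric mean of its non-exposed strain means plus 0.1) placed exposed pups on their own strain's side in 365 of 378 cases. Of the other 13 cases, 9 were G5, 3 were G11 and 1 was N12 in GAERS VPA 4. Cases share pups and genes, so these counts are a description.

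**Figure D2:**
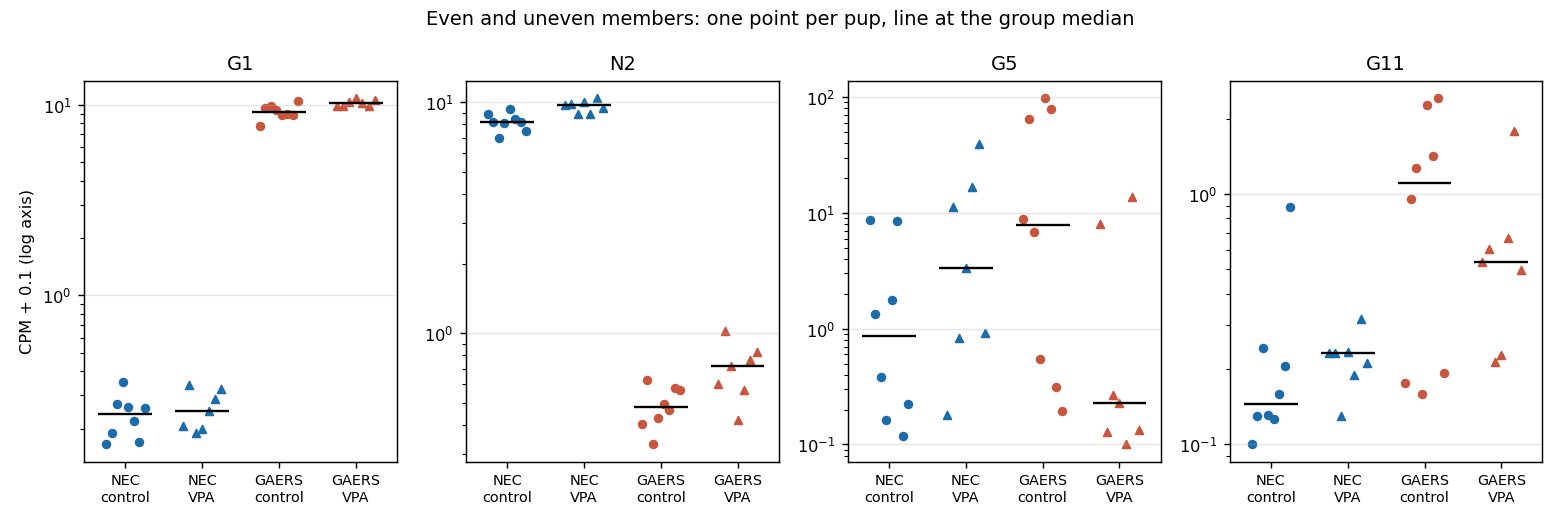
CPM + 0.1 of G1, N2, G5 and G11 in each pup of the 4 groups (1 point per pup, log axes that differ between panels, line at the group median, circles for non-exposed and triangles for exposed pups, NEC in blue and GAERS in red). G1 and N2 fall into strain levels that do not overlap, while G5 spreads over the whole range in both strains and G11 is high in part of the GAERS pups.

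G5 (ENSRNOG00000011207) did not keep its direction. In GAERS controls 3 of 8 pups were at 65.2 to 97.7 CPM and the other 5 at 8.69 CPM or lower, with a group median of 7.72 CPM. In NEC controls the lowest, median and highest values were 0.0177, 0.768 and 8.60 CPM. The strains overlapped already in the pups that chose the gene. In exposed pups the NEC values ran from 0.0794 to 39.0 CPM with a median of 3.23 CPM, and the GAERS values from 0 to 13.6 CPM with a median of 0.127 CPM. The ratio of the rule became 0.311 and the log2 fold change of GAERS over NEC was -1.75 ± 1.31 SE (edgeR adjusted p = 0.401), within the spread between pups. G5 was under 1 CPM in 15 of all 30 pups, in each of the 4 groups.

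G11 was uneven within GAERS and low in nearly all NEC pups. In GAERS controls 5 of 8 pups were at 0.852 to 2.31 CPM and 3 at 0.0936 CPM or lower. In exposed GAERS 5 of 7 pups were at 0.399 to 1.68 CPM and 2 at 0.127 CPM or lower. The highest exposed NEC pup was at 0.216 CPM, below those 5. Among NEC controls, 1 pup (NEC control 8) reached 0.786 CPM. Of 15 GAERS pups, 8 had G5 under 1 CPM, 5 had G11 under 0.2 CPM and 4 were low in both. The 4 pups low in G5 alone were GAERS control 7 and GAERS VPA 2, 5 and 7, and GAERS control 1 was low in G11 alone. The bounds of 1 and 0.2 CPM were set after the values were seen.

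Applied to the exposed libraries, the rule gave 31 genes, of which 19 were among the 27. That is 70.4% of the list from non-exposed pups and 61.3% of the list from exposed pups. Of the 12 genes that met the rule in exposed pups only, 8 rested on NEC VPA 7, which was over 4 times the next exposed NEC pup in each. Without NEC VPA 7 the rule gave 23 genes, 19 of them members. Of the 8 members that no longer met the rule, 6 had a ratio under 4 (G5, G11, G13, N12, N13 and N14), and G10 and N5 kept a ratio of 5.52 and 10.6 but had means just under 1 CPM, at 0.996 and 0.963 CPM.

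Near the threshold the choice of genes was not sharp. The members with the smallest ratios in non-exposed pups were G13 at 4.0, G12 at 4.20 and N14 at 4.22. In exposed pups these were 3.11, 5.38 and 3.70. The genes just outside had ratios of 3.92, 3.79 and 3.69 in non-exposed pups and of 4.18, 3.16 and 3.02 in exposed pups, so the first of them would have entered on the exposed libraries.

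**Figure D3:**
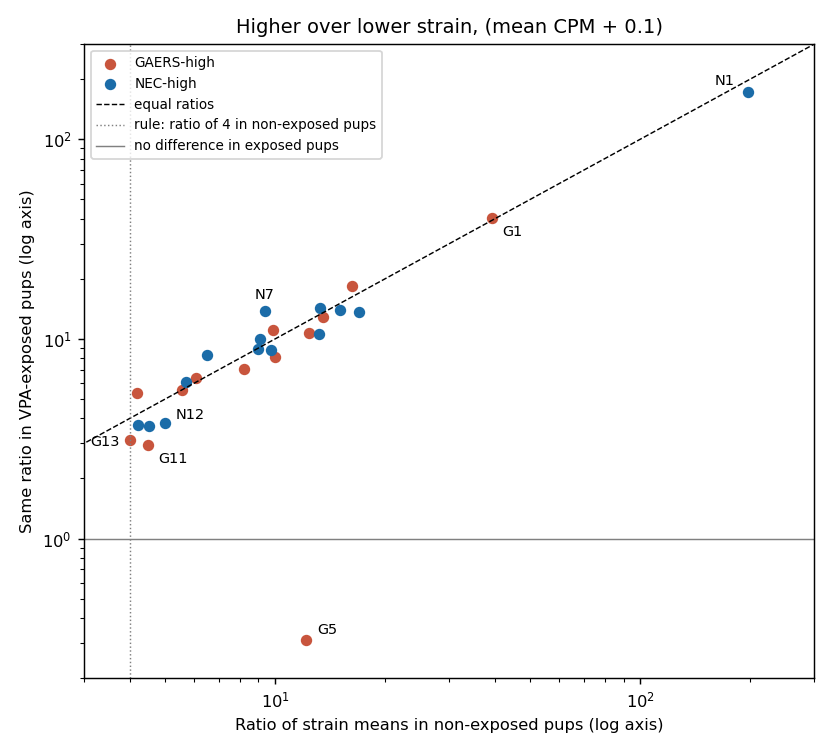
Ratio of the higher to the lower strain mean (each plus 0.1 CPM) in non-exposed pups (x) and the same ratio, in the same direction, in exposed pups (y), for each member on log axes (GAERS-high in red, NEC-high in blue, dashed line at equal ratios, dotted line at the rule's ratio of 4, solid line at 1). Points lie near the line of equal ratios from G13 at 4.0 and 3.11 to N1 at 197 and 172, and G5 falls below 1 at 0.311.

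Whether exposure altered the strain difference was asked with the interaction, the exposure effect in GAERS minus that in NEC, in a fit on all 30 libraries. No member was called (0 of 27, 2 with an unadjusted p under 0.05), and no gene was (0% of 15885, 1278 with an unadjusted p under 0.05) by edgeR. The smallest adjusted p among members was 0.607. DESeq2 and limma-voom also called 0 members, and over all genes DESeq2 called 2. Without the 4 libraries that stood apart 91 genes were called, still with 0 members. The control libraries in this comparison are those that chose the members, and that choice alone pulls the difference toward a smaller size in exposed pups. The median ratio went from 9.40 in non-exposed to 8.80 in exposed pups, smaller in 17 members and larger in 10. By direction, the median went from 9.87 to 7.11 in the GAERS-high genes and from 9.24 to 9.44 in the NEC-high genes.

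For most members the interaction was small or poorly bounded. In 24 members, leaving out G5, G11 and N5, it ran from -0.53 to 0.47 on the log2 scale, with standard errors of 0.18 to 1.01. These errors, derived from F, are rough where counts are few. The largest, of G4, stands beside 0.64 in NEC and 0.18 in GAERS for its exposure effects. A 2-fold change of the strain difference could be missed in the members with the fewest counts. N7 had the lowest value, -0.53 ± 0.49 SE. The interaction of N2 was 0.43 ± 0.20 SE (edgeR unadjusted p = 0.0359, adjusted p = 0.607). The interaction of G5 was -5.42 ± 1.85 SE (edgeR unadjusted p = 0.00701, adjusted p = 0.607).

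Exposure moved a few members within a strain, by less than the strains differed, though the rule had chosen the members for a large strain difference. In NEC, 5 of 27 members (18.5%) were called, 3 higher and 2 lower in exposed pups, against 24.6% of all 15885 genes tested (11.1% higher and 13.6% lower). In GAERS, 2 of 27 (7.41%) were called, both higher, against 3.82% of all genes (1.88% higher and 1.94% lower). These comparisons also use the control libraries that chose the members. That choice alone favours a rise in the strain where a member is low and a fall where it is high. The calls of G6, G9 and N13 in NEC and N2 in GAERS lie in that direction. Those of N10 and G12 in NEC and G9 in GAERS go the other way. The share in NEC was near that of all genes, and in GAERS 2 genes are too few to set apart from it.

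G9 (ENSRNOG00000047706), a GAERS-high gene, was higher in exposed pups of both strains. In GAERS its lowest, median and highest values were 4.90, 5.67 and 6.94 CPM in controls and 7.01, 7.68 and 9.94 CPM in exposed pups, so that 7 of 7 exposed pups lay above every control. The log2 fold change was 0.47 ± 0.11 SE (edgeR adjusted p = 0.0173). This GAERS call was kept whichever library was left out, but barely so without GAERS VPA 3 (edgeR adjusted p = 0.04996). In NEC, where the gene is low, it rose from 0.863 ± 0.178 CPM (SD, n = 8) to 1.18 ± 0.324 CPM (SD, n = 7), by 0.42 ± 0.14 SE on the log2 scale (edgeR adjusted p = 0.0307), with 4 of 7 exposed pups above every control. The NEC call was lost without NEC control 7, NEC control 8, NEC VPA 2 or NEC VPA 4 (edgeR adjusted p = 0.0515, 0.0639, 0.128 and 0.0554).

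N10 (ENSRNOG00000060849), a NEC-high gene, rose in NEC. Its lowest, median and highest values were 1.36, 2.87 and 4.14 CPM in controls and 3.27, 4.86 and 5.90 CPM in exposed pups, with 5 of 7 exposed pups above every control. The log2 fold change was 0.67 ± 0.18 SE (edgeR adjusted p = 0.00803). In GAERS the values were 0.360 ± 0.161 CPM without exposure and 0.476 ± 0.143 CPM with it (SD, n = 8 and 7; edgeR adjusted p = 0.477). N7 had a like pair of values in NEC, 3.84 ± 1.72 CPM without exposure and 6.20 ± 1.51 CPM with it (SD, n = 8 and 7), but did not pass (edgeR adjusted p = 0.0577). It was called by limma-voom, and by edgeR without NEC control 2, NEC control 6, NEC VPA 6, GAERS control 1 or GAERS VPA 4.

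N13 (ENSRNOG00000054418) fell in NEC, from 3.10 ± 0.233 CPM (SD, n = 8) to 2.44 ± 0.314 CPM (SD, n = 7). The log2 fold change was -0.38 ± 0.11 SE (edgeR adjusted p = 0.0114), and 6 of 7 exposed pups lay below every control. The seventh, NEC VPA 1 at 3.15 CPM, lay among the controls. In GAERS N13 was at 0.611 ± 0.108 and 0.592 ± 0.148 CPM (SD, n = 8 and 7).

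The remaining calls were of members in the strain where they are low. G6 rose in NEC from 0.453 ± 0.126 to 0.751 ± 0.264 CPM (SD, n = 8 and 7; log2 fold change 0.65 ± 0.20 SE, edgeR adjusted p = 0.0188), with 5 of 7 exposed pups above every control, and without NEC VPA 7 the adjusted p was 0.0657. G12 fell in NEC from 0.861 ± 0.266 to 0.613 ± 0.147 CPM (SD, n = 8 and 7; log2 fold change -0.52 ± 0.18 SE, edgeR adjusted p = 0.0349). That call was lost without NEC control 1, NEC control 3, NEC control 5, NEC VPA 1 or NEC VPA 7 (edgeR adjusted p = 0.0938, 0.0581, 0.0695, 0.0977 and 0.0755). N2 rose in GAERS from 0.386 ± 0.1004 to 0.604 ± 0.197 CPM (SD, n = 8 and 7; log2 fold change 0.62 ± 0.17 SE, edgeR adjusted p = 0.0308), and 4 of 7 exposed pups lay above every control. The N2 call was lost without GAERS control 1, 3, 4 or 5 or GAERS VPA 2, 3, 6 or 7 (edgeR adjusted p of 0.0523 to 0.120). 

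**Figure D4:**
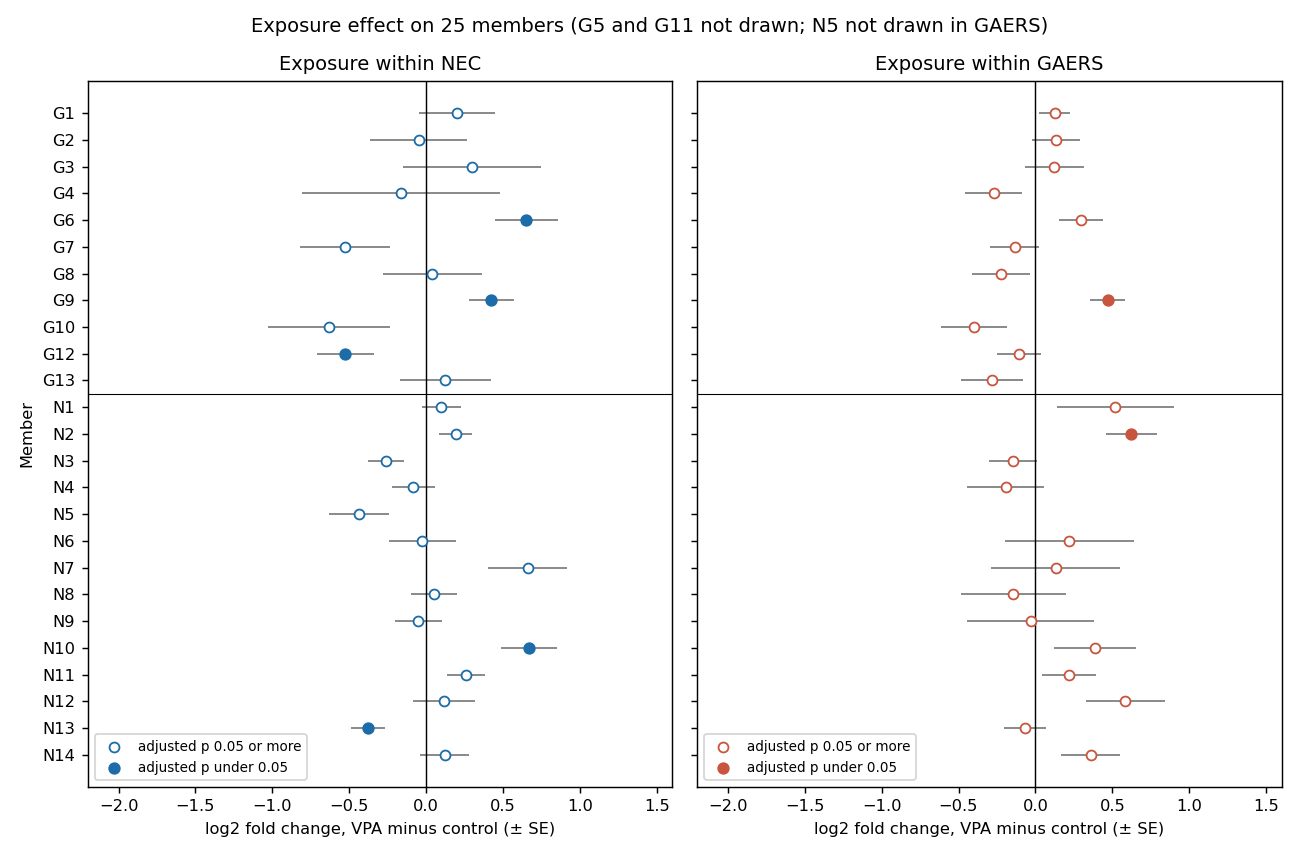
Exposure effect within NEC (left) and within GAERS (right) for 25 members, as log2 fold change of exposed over non-exposed pups with its standard error, from edgeR on all 30 libraries. Filled points (G6, G9, G12, N10 and N13 in NEC, G9 and N2 in GAERS) have an adjusted p under 0.05. G5 and G11 are not drawn, nor is N5 in GAERS, where it had 1 count in all. The called effects lie between -0.52 and 0.67. In exposed pups the strain differences of the same genes run in size from N13 at -2.05 to N2 at -3.98, for genes that the rule chose for a large difference.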

How the data were processed

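Per the labels' protocols, total RNA of 30 pup brains went into stranded libraries. The deposited table holds raw counts, 1 row for each Ensembl identifier and 1 column for each pup. Per the submitters' processing notes, FastQC and STAR 2.5 were used, with Rnor_6.0 (rn6) as the build. Which tool and annotation made the counts, and whether strand was used, is not given in the sources used here. Overlapping or near-identical genes may therefore share reads. A RefSeq table of GRCr8 (47357 rows) held no Ensembl identifiers, so the planned gene lists, families and markers were not run.

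The gene lists were chosen with earlier results of these data known. The rule picked the members from levels in the non-exposed libraries alone, and no exposed level entered it. Earlier results were known at that point too. CPM in the text use column totals. Tests used edgeR 4.0.16 in R 4.3.3 with TMM scaling, filterByExpr (minimum count 10, minimum total 15) and robust quasi-likelihood fits with group means: on the 14 exposed libraries for strain, and on all 30 for exposure and interaction. Standard errors were derived from F. The fits were also run on simulated data, with changes planted in genes of at least 1 CPM on average and no strain difference. Members differ in this, so nothing is read from these runs for them. The rule for named genes took, per direction, the 8 most abundant members and the 4 with the largest ratio, members whose ratio in exposed pups was under 2, up to 6 members called for exposure, and 3 genes on each side of the threshold. Its part on gene lists could not be run, and identifiers were limited to a few per comparison. Some genes that it took, such as N4 and G8, are not described singly. Some that are described, such as N5 and G11, lay outside that rule. Alternatives were other scalings and filters, DESeq2 1.42.0, limma-voom (limma 3.58.1), other settings of the rule, and leaving out each library. Replicate numbers follow the order of deposit. Leaving out the 4 libraries that stood apart, and the rule in exposed libraries without each pup, were added after the data were seen.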

Additional observations from a re-analysis of the deposited data

Results flagged for a closer look

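Each member was searched in each group for a pup far from the rest, by the gap to its nearest neighbour over the range of the group. Of 107 sets 15 had such a pup. At 1 in 20 about 5.35 would be flagged if values were independent and normal. Sets of a few counts, and members sharing the same pups, do not meet that, so no excess is read from the 15. GAERS VPA 4 gave 3 of them and NEC control 3 gave 2.

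Among the GAERS-high genes, G3 was at 0.260 CPM in NEC VPA 7, G4 at 0.0940 CPM in NEC control 4 and G5 at 39.0 CPM in NEC VPA 6, each the highest of its group. G7 was at 1.64 CPM in GAERS VPA 1, the lowest of its group, and G10 at 1.43 CPM in GAERS VPA 4, the highest. G11 was at 0.786 CPM in NEC control 8 and at 1.68 CPM in GAERS VPA 6, both the highest of their groups.

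Among the NEC-high genes, NEC control 3 was highest of its group in N1, at 64.9 CPM, and in N3, at 40.4 CPM. N5 was at 0.0312 CPM in GAERS control 8, which is the single count found in GAERS. GAERS VPA 4 was highest of its group in N7, at 0.797 CPM, and in N12, at 2.04 CPM. N8 was at 1.14 CPM in NEC control 1, the lowest of its group. N13 was at 3.15 CPM in NEC VPA 1 and at 0.894 CPM in GAERS VPA 2, both the highest of their groups.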

How the results depend on the processing

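The direction and call of each of the 26 members tested in exposed pups were the same in all 567 values computed under other scalings, filters, tools and left-out libraries, except that the filter of 1 CPM in 7 libraries removed some members from the test. The number of members by the rule did depend on its settings. It was 8 GAERS-high and 6 NEC-high with a pseudocount of 0.5, and 8 and 9 with a ratio of at least 8. A minimum of 0.5 CPM gave 36 genes in all, and so did the median of pups in place of the mean. Leaving out each control library gave 11 to 14 GAERS-high and 13 to 15 NEC-high genes. Without the 2 control libraries that stood apart the rule gave 26 genes, N14 being lost. Without the 2 exposed libraries that stood apart, 25 members were still called between the strains. For exposure in NEC, limma-voom called 3 members (N7, N10 and N13, thus without G6, G9 and G12). DESeq2 called 6 members there (G6, G9, G12, N2, N10 and N13). Leaving out each library gave 3 to 7, which in some cases took in N7 or N5. Leaving out the 4 libraries that stood apart gave 2 in NEC (N10 and N13). For exposure in GAERS, the fit with no filter and limma-voom each called 1 member, and leaving out each library gave 1 to 2. Leaving out the 4 libraries that stood apart gave 2 in GAERS (G9 and N2). The cause of these changes was not tested. Members have few counts in the lower strain (under 100 summed over the exposed libraries in 17 of 27), which limits the test of exposure there. No paired analysis was possible because nothing in the labels, neither a litter nor a number, pairs pups across groups.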

Other observations

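Among the 12 genes that met the rule in exposed pups but not in non-exposed pups, 8 were NEC-high through NEC VPA 7 alone. In these NEC VPA 7 was at 7.45 to 54.1 CPM, while no other exposed NEC pup was above 0.867 CPM. The other 4 did not overlap between the strains in exposed pups. One of them was GAERS-high with exposed means of 1.98 CPM in GAERS and 0.124 CPM in NEC, and had missed the rule in non-exposed pups because its GAERS mean there was 0.553 CPM. Another was NEC-high with exposed means of 1.10 and 0.0399 CPM, and a non-exposed NEC mean of 0.885 CPM. A further NEC-high gene was read at far higher levels, 442 CPM in exposed NEC and 88.4 CPM in exposed GAERS, with non-exposed means of 269 and 89.9 CPM. The remaining gene is the one just outside the threshold, at 71.0 and 16.9 CPM in exposed GAERS and NEC.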
